A study of Mus musculus with 12 samples.

Results

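Wnt pathway genes of the hepatocytes around the central vein were read out in livers of tumour-bearing mice kept at 6, 22 or 29 °C. The 10 genes were taken by symbol from the table of 55421 genes: the ligands Wnt2 and Wnt9b, the co-ligand Rspo3, the receptor Lgr5, the feedback genes Axin2, Rnf43 and Znrf3, and the hepatocyte targets Glul, Tbx3 and Lect2. All 10 were found and all 10 passed the low-count filter that left 15006 genes for testing. Whole-liver RNA was taken on day 21 from wild-type (WT) animals bearing an orthotopic E0771 tumour. E0771 is a mouse breast cancer cell line, and all animals had 1 week to adapt to their housing temperature. Libraries 1 to 4 were from 6 °C, libraries 5 to 8 from 22 °C and libraries 9 to 12 from 29 °C, the warmest being near thermoneutrality for a mouse. The protocols in the labels mention both Balb/C and C57Bl6/J mice without assigning libraries to a strain. Every animal carried a tumour, and no tumour-free group was analysed here.

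Hepatocytes along the liver lobule differ by position. Endothelial cells of the central vein secrete Wnt2 and Wnt9b, and Rspo3 from the same niche and from stellate cells amplifies the signal by binding Lgr4 and Lgr5, which removes the ubiquitin ligases Rnf43 and Znrf3 from the hepatocyte surface. The Frizzled receptors that are spared then stabilise β-catenin, which with TCF factors switches on Axin2, Lgr5, Rnf43 and Znrf3 as feedback components and pericentral genes such as Glul, Tbx3 and Lect2. Because whole liver was sequenced, fewer cells of a type and less RNA per cell cannot be told apart, most of all for the endothelial ligands.

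The stretch before the start of Lect2 is shown because it alone among the members found in RefSeq's promoter table held the 7-base TCF/LEF motif, and that of Axin2 is shown beside it as a classic feedback target. The table (RefSeq, GRCm38.p6) held 7 starts of 6 members, Glul, Lect2, Axin2, Rnf43 (with 2 starts), Wnt2 and Wnt9b. The motif CTTTGAT, or ATCAAAG on the other strand, was found in 1 of these 7 stretches of 250 bases and in 3.21% of all 32851 searched. The Lect2 stretch lies at chr13:56548539-56548788 and the Axin2 stretch at chr11:108920099-108920348. Both are written 5′ to 3′ as transcribed, Lect2 from the minus strand and Axin2 from the plus strand, up to the base before the start, with the motif in capitals. The match begins 32 bases before the Lect2 start. A match describes the letters only, and no binding was measured.
Lect2 promoter: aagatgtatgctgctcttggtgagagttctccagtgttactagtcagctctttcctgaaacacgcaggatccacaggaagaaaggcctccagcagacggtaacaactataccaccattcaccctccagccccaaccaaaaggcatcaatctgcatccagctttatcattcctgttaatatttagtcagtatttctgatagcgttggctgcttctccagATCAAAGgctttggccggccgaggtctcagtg
Axin2 promoter: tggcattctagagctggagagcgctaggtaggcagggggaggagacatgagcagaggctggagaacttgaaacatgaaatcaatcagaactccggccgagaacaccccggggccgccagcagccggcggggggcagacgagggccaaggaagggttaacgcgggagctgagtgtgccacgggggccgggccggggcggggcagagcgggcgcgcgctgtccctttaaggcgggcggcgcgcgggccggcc

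Total counts lay between 7615585 and 19001126 per library, and levels are given as CPM, counts scaled to a common library size with TMM, a correction for composition. The limit that 0 counts allow (3 counts) was 0.150 to 0.398 CPM, for counting error only. Libraries 1, 7, 8 and 9 held H2-Ea-ps transcripts at 11.8 to 17.1 CPM while the other 8 had 0 counts, and libraries 3, 5 and 6 held the least of the ribosomal-RNA-related transcript Gm26917, at 0.605% to 1.66% of counts against 4.03% to 8.70% elsewhere. H2-Ea-ps libraries occur at all 3 temperatures, whereas the Gm26917-low set has none at 29 °C and so is partly confounded with temperature. At 22 °C the splits coincide: libraries 5 and 6 lack H2-Ea-ps and are Gm26917-low, while libraries 7 and 8 hold H2-Ea-ps and are not. Without the H2-Ea-ps libraries, a 29 against 22 °C difference therefore cannot be told apart from the Gm26917 difference. Member results are given with and without each set where that changes a call. As background, H2-Ea is transcribed in Balb/C but not in C57Bl6/J mice. Whether the H2-Ea-ps split follows strain was not tested, and results that change with those 4 libraries cannot be told apart from a strain difference. The same 4 libraries were also the highest in neutrophil markers within their temperatures, which cannot be told apart from the split either. Albumin stood at 54281 to 152446 CPM. It was at 54281 to 63286 CPM in the 4 libraries with H2-Ea-ps and at 61659 to 152446 CPM in the other 8. Of 12 liver endothelial markers all were detected in each library. Markers of intestinal epithelium summed to 716 CPM in library 11 and to at most 48.5 CPM elsewhere. Pancreatic acinar markers, of which 1 of 6 was tested, summed to 47.3 CPM in library 3 and 15.4 CPM in library 11, against at most 4.997 CPM elsewhere. Mammary epithelial markers had 0 counts in 11 libraries. Of the other cell type lists, hepatocyte, cholangiocyte, Kupffer cell, neutrophil, lymphocyte, erythroid and pancreatic acinar markers had 0 called genes in any comparison. From 6 to 29 °C the fold changes were positive for 8 of 8 Kupffer cell markers (median log2 fold change 0.62), 6 of 6 erythroid markers (1.14) and 6 of 6 neutrophil markers (1.38). Over all tested genes 50.1% were positive. Between the same temperatures 1 intestinal marker was called, Lgals4, which stood at 39.9 CPM in library 11. In libraries 9, 10 and 12 it was at 15.5, 15.4 and 21.8 CPM, above the 3.85 to 10.1 CPM of the 6 °C libraries. Without library 11 its log2 fold change was 1.54, and the call was lost in 11 of 22 alternatives. Neutrophil markers summed to 8.27 to 559 CPM at 6 °C, 255 to 1011 CPM at 22 °C and 302 to 1651 CPM at 29 °C. At each temperature the H2-Ea-ps libraries held the highest sums. Library 1 stood at 559 CPM against at most 203 CPM in the rest of its group. Libraries 7 and 8 stood at 1011 and 729 CPM against at most 292 CPM, and library 9 at 1651 CPM against at most 465 CPM. The part of these cell types in the member results was not tested. The labels give no animal for a library, so that the p-values speak of library-to-library spread, which may be technical.

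The members differed widely in abundance. Per kb of exon, Glul was the most abundant at 334 ± 95.5 CPM per kb (SD over 12 libraries), followed by Lect2 at 74.8 ± 29.0 and Tbx3 at 10.8 ± 4.78. The feedback genes formed a middle tier, with Rnf43 at 6.90 ± 1.33, Znrf3 at 4.25 ± 0.665, Axin2 at 3.95 ± 0.932 and Lgr5 at 2.12 ± 0.719 CPM per kb. The niche signals came last, Rspo3 at 1.65 ± 0.450, Wnt2 at 0.889 ± 0.412 and Wnt9b at 0.342 ± 0.231 CPM per kb. Neighbours in this order from Tbx3 to Rnf43, from Znrf3 to Axin2 and from Lgr5 to Rspo3 were closer than the larger of their SDs. At most 68 counts stood behind any value of Wnt2 or Wnt9b, which limits what could be seen for them.

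**Figure D1:**
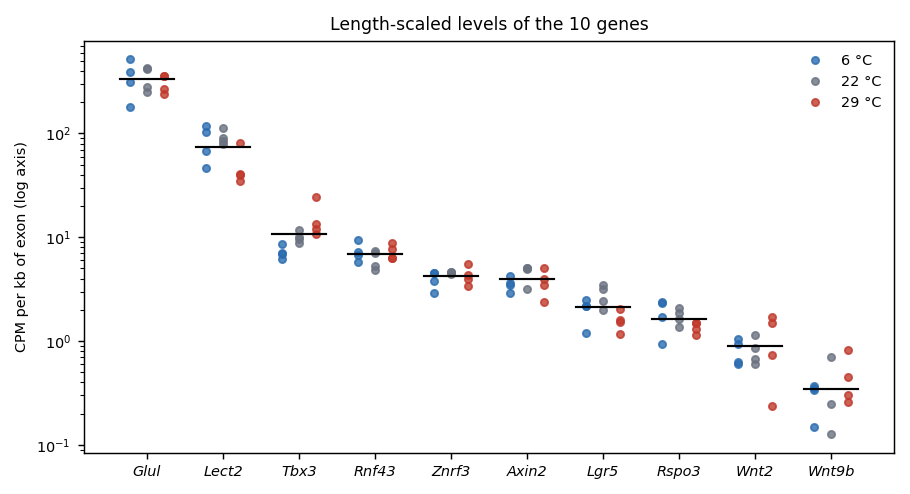
Mean CPM per kb of exon on a log axis for the 10 genes, with a point for each library coloured by housing temperature and a line at the mean over 12 libraries; the 1 library with 0 counts of Wnt9b has no point. Glul lies at 334 and Wnt9b at 0.342 CPM per kb.

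Tbx3 (ENSMUSG00000018604.18, chr5:119670669-119684724, plus strand) in GRCm38, a T-box transcription factor that Wnt signalling switches on in hepatocytes, was the 1 member that passed in any comparison, and it was higher in warmer housing. Its level was 45.7, 46.9, 56.5 and 41.3 CPM in libraries 1 to 4 at 6 °C, 77.1, 64.4, 66.6 and 58.4 CPM in libraries 5 to 8 at 22 °C, and 71.9, 88.8, 79.9 and 161 CPM in libraries 9 to 12 at 29 °C. All 6 °C libraries lay below all others, while the 22 and 29 °C ranges overlapped through library 9, and library 12 stood well above the rest. Group means were 47.6 ± 6.41, 66.6 ± 7.77 and 100 ± 40.9 CPM (SD, n = 4 each). Between 29 and 6 °C Tbx3 rose by 1.08 on the log2 scale, a 2.11-fold difference (SE 0.22, adjusted p = 0.0276 by edgeR's quasi-likelihood test, two-sided, Benjamini-Hochberg over all genes). In that comparison 2.53% of tested genes were called (1.13% higher and 1.39% lower), against 1 of 10 members. Groups did not overlap for 13.3% of tested genes (6.51% higher and 6.78% lower), again against 1 of 10 members. An unadjusted p under 0.05 was reached by 19.4% of tested genes and by 2 members, Tbx3 and Lect2.

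The Tbx3 call was lost in 7 of 22 alternatives, and its size depended most on library 12. Without library 12 the log2 fold change was 0.76 and the call held (adjusted p = 0.0398). The adjusted p lay over the threshold without library 1 (0.0508), 2 (0.0569), 3 (0.0580), 4 (0.0916), 10 (0.0734) or 11 (0.0517), and without libraries 3, 5 and 6 together (0.0659). Over these 7 settings the log2 fold change was between 1.02 and 1.17. The call also held in the 8 libraries lacking H2-Ea-ps (adjusted p = 0.0244). The intermediate steps did not pass: 29 against 22 °C gave 0.59 (adjusted p = 0.256) and 6 against 22 °C gave -0.48 (adjusted p = 0.412), the latter with no overlap between groups, as in 6.34% of all genes (2.81% lower). A joint test over the 3 temperatures gave an adjusted p of 0.0686, where 0.666% of genes passed. It passed for Tbx3 in 6 of 21 alternatives, with adjusted p between 0.00260 and 0.169 over their joint tests.

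The locus of Tbx3 overlaps the antisense transcript Tbx3os1. The use of strand in counting is not given in the sources used here, so reads of the pair may be mixed. Tbx3os1 held between 4.80% and 16.7% as many counts as Tbx3, and its own log2 fold change between 29 and 6 °C was 0.04 (SE 0.27, adjusted p = 0.956). Overlapping genes with few counts per library were also annotated for Rnf43 (1110028F11Rik, 24 to 82 counts), Rspo3 (Gm20276, 5 to 25) and Glul (Teddm2, 3 to 33).

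**Figure D2:**
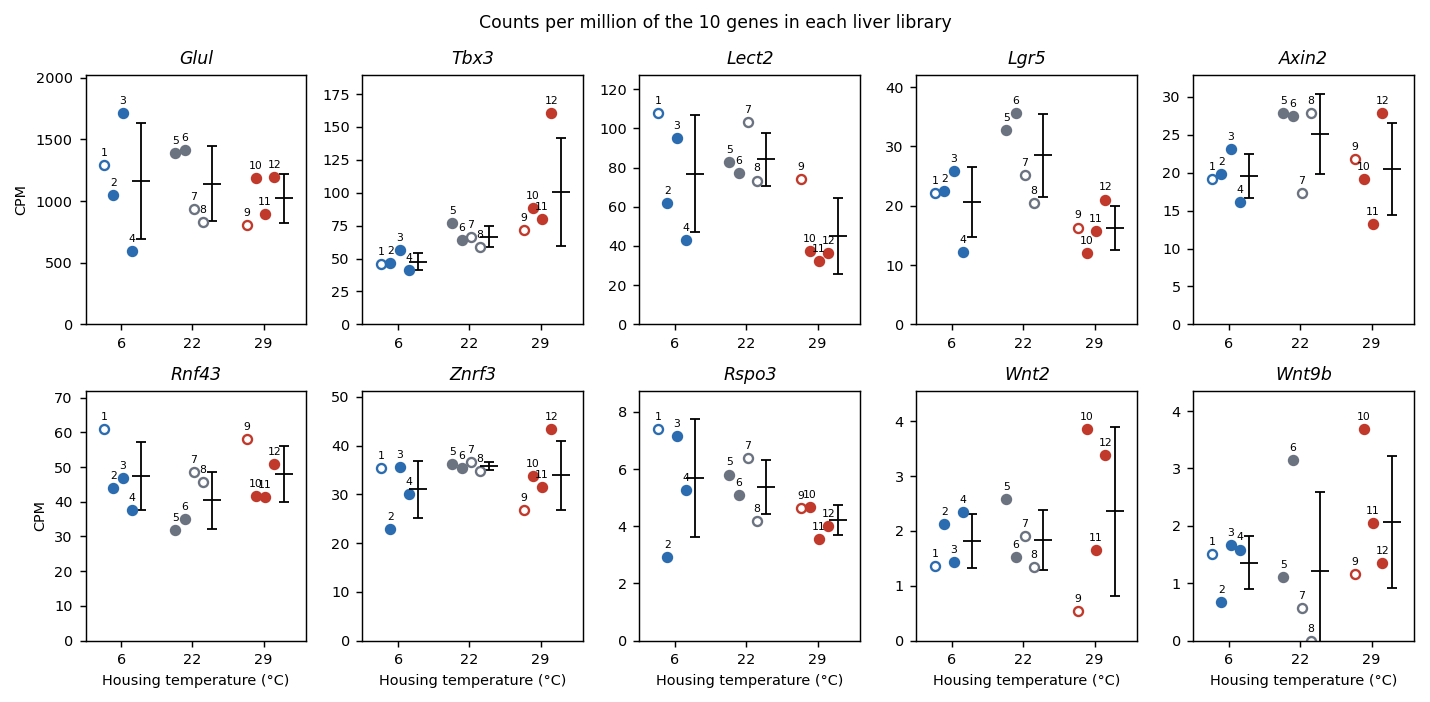
CPM of each gene in the 12 libraries, in panels with a linear axis from 0, by housing temperature. Numbers name libraries, open circles mark the 4 libraries with H2-Ea-ps transcripts, and the bar to the right of each group is its mean with SD (n = 4). Tbx3 lies between 41.3 and 56.5 CPM at 6 °C, below every library at 22 and 29 °C.

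Lect2 (ENSMUSG00000021539.9, chr13:56542464-56548502, minus strand), a secreted hepatocyte factor and β-catenin target, had its lowest levels at 29 °C. Lect2 was at 108, 61.7, 95.04 and 43.1 CPM in libraries 1 to 4. The 22 °C values were 82.9, 77.1, 103 and 73.4 CPM for libraries 5 to 8, and the 29 °C values 74.2, 37.4, 32.2 and 36.3 CPM for libraries 9 to 12. Libraries 10 to 12 lay below every library at 6 and 22 °C, and library 9 lay within both ranges. Means were 77.0 ± 29.8, 84.2 ± 13.4 and 45.0 ± 19.6 CPM (SD, n = 4 each). The log2 fold change was -0.78 (SE 0.30) against 6 °C and -0.90 (SE 0.31) against 22 °C, and neither passed (adjusted p = 0.183 and 0.228). Without library 9 the difference from 6 °C was -1.12 (adjusted p = 0.0577). Mitochondrial transcripts made up 1.10% to 1.91% of counts in libraries 2, 4 and 10 to 12, and 2.73% to 5.15% elsewhere. Lect2 was at 32.2 to 61.7 CPM in the former and at 73.4 to 108 CPM in the latter. The low set holds libraries 10 to 12 at 29 °C and none at 22 °C, so it is partly confounded with temperature. Its part in the Lect2 result was not tested. No gene of the 15006 passed between 29 and 22 °C by edgeR (0%), though 2241 had an unadjusted p under 0.05, DESeq2 called 329 and limma voom 43. The groups did not overlap for 7.68% of genes there (3.87% higher, 3.81% lower) and for 0 of 10 members, while 3 members (Tbx3, Lect2 and Lgr5) and 14.9% of genes had an unadjusted p under 0.05.

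The call for Lect2 changed with the handling of the H2-Ea-ps libraries. With a term for those 4 libraries the difference from 6 °C passed at -0.81 (adjusted p = 0.0358). When those 4 were left out, Lect2 passed against both 6 °C (-0.91, adjusted p = 0.0404) and 22 °C (-1.18, adjusted p = 0.0149), the latter resting on libraries 5 and 6 alone at 22 °C. Limma voom with quality weights also called the difference from 6 °C (adjusted p = 0.0434). Calls over all tested genes against 6 °C rose as well, from 379 as reported to 1884, 1504 and 1110 in the order given. Against 22 °C, where 0 genes were called as reported, calls also rose without those 4 libraries. The gain in calls was therefore not particular to Lect2. A joint test over the 3 temperatures did not pass for Lect2 as reported. It passed in 3 of 21 alternatives, with adjusted p between 0.0223 and 0.401 over their joint tests. Between 6 and 22 °C the log2 fold change was -0.13 (SE 0.30, adjusted p = 0.907).

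Glul (ENSMUSG00000026473.16, chr1:153899944-153909723, plus strand), glutamine synthetase, the textbook marker of the hepatocyte layer around the central vein, passed in no comparison. Its level was 1291, 1049, 1717 and 591 CPM in libraries 1 to 4, 1390, 1414, 934 and 830 CPM in libraries 5 to 8, and 806, 1189, 894 and 1195 CPM in libraries 9 to 12. The 6 °C libraries alone covered the whole range of both other groups. Means were 1162 ± 470, 1142 ± 304 and 1021 ± 201 CPM. The log2 fold change between 29 and 6 °C was -0.19 with a 95% interval of -0.82 to 0.44 (adjusted p = 0.781), and differences within that interval could not be resolved. Within 22 °C, Glul was higher in libraries 5 and 6 than in libraries 7 and 8, the 2 of that group with H2-Ea-ps.

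Lgr5 (ENSMUSG00000020140.15, chr10:115450311-115587780, minus strand), the R-spondin receptor whose own transcript is a Wnt target, showed the largest difference of the feedback tier. Its values were 22.2, 22.4, 25.8 and 12.2 CPM for libraries 1 to 4, 32.7, 35.7, 25.1 and 20.4 CPM for libraries 5 to 8, and 16.3, 12.0, 15.7 and 21.1 CPM for libraries 9 to 12. Libraries 5 and 6 lay highest, libraries 7 and 8 lay within the 6 °C range, and the 22 and 29 °C ranges overlapped between libraries 8 and 12. Between 29 and 22 °C the log2 fold change was -0.81 (SE 0.25), with an unadjusted p of 0.00562 and an adjusted p of 0.200. Libraries 5 and 6, the highest in Lgr5, are with library 3 the lowest in Gm26917. The fold change was -0.49 (adjusted p = 0.670) without those 3 libraries and -1.08 (adjusted p = 0.0340) without the 4 that held H2-Ea-ps. The latter setting leaves only libraries 5 and 6 at 22 °C, and no 29 °C library is low in Gm26917. It also raised the calls over all tested genes from 0 as reported, so the gain was not particular to Lgr5. The part of these library differences in the result was not tested. Against 6 °C the log2 fold change was -0.34 (SE 0.25, adjusted p = 0.475).

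Axin2 (ENSMUSG00000000142.15, chr11:108920349-108950783, plus strand), a scaffold of the β-catenin destruction complex and a general readout of Wnt activity, passed in no comparison. It ranged from 16.1 to 23.2 CPM at 6 °C, from 17.3 to 27.9 CPM at 22 °C and from 13.2 to 27.9 CPM at 29 °C. Libraries 5, 6 and 8 at 22 °C lay between 27.5 and 27.9 CPM, and library 7 stood apart at 17.3 CPM. The log2 fold change was 0.07 (95% interval -0.41 to 0.55) between 29 and 6 °C, -0.29 (-0.77 to 0.18) between 29 and 22 °C, and -0.36 (-0.84 to 0.12) between 6 and 22 °C, with adjusted p of 0.911, 0.558 and 0.531.

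Rnf43 (ENSMUSG00000034177.15, chr11:87662722-87735539, plus strand) and Znrf3 (ENSMUSG00000041961.14, chr11:5276324-5444847, minus strand), the paired membrane ligases that clear Frizzled receptors, were among the least variable members. Znrf3 ranged from 23.0 to 35.6 CPM at 6 °C, from 34.7 to 36.7 CPM at 22 °C and from 26.7 to 43.5 CPM at 29 °C. Its log2 fold change between 29 and 6 °C had a 95% interval of -0.23 to 0.49. Rnf43 stood at 61.0, 43.9, 47.0 and 37.7 CPM at 6 °C, at 32.0, 34.99, 48.7 and 45.8 CPM at 22 °C, and at 58.2, 41.6, 41.4 and 50.8 CPM at 29 °C, in library order. At each temperature the libraries with H2-Ea-ps (1, 7, 8 and 9) were the highest in Rnf43. Between temperatures its log2 fold change was 0.02 (29 against 6 °C, 95% interval -0.38 to 0.41), 0.25 (29 against 22 °C, -0.15 to 0.64) and 0.23 (6 against 22 °C, -0.17 to 0.63), with adjusted p of at least 0.548.

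The secreted signals of the niche were low and did not pass in any comparison. Rspo3 (ENSMUSG00000019880.10, chr10:29452416-29535867, minus strand), which potentiates Wnt signals, stood at 5.68 ± 2.07, 5.36 ± 0.951 and 4.21 ± 0.530 CPM at 6, 22 and 29 °C, with a log2 fold change of -0.44 between 29 and 6 °C (SE 0.28, adjusted p = 0.412). The 29 °C libraries kept to between 3.56 and 4.66 CPM, and the 6 °C libraries spread from 2.92 to 7.41 CPM around them. Wnt2 (ENSMUSG00000010797.6, chr6:17988940-18030585, minus strand), a central vein ligand, ranged from 1.37 to 2.34 CPM at 6 °C, from 1.34 to 2.58 CPM at 22 °C and from 0.539 to 3.86 CPM at 29 °C. The 29 °C spread ran from 7 counts in library 9 to 68 in library 10, and the log2 fold change from 6 °C was 0.39 with a 95% interval of -0.66 to 1.45. Wnt9b (ENSMUSG00000018486.2, chr11:103727364-103749821, minus strand), the other ligand, ranged from 0.664 to 1.67 CPM at 6 °C, from 0 to 3.15 CPM at 22 °C and from 1.16 to 3.69 CPM at 29 °C. Library 8 had 0 counts of it, which allows up to 0.224 CPM. Its log2 fold change between 29 and 6 °C was 0.59 (SE 0.77, 95% interval -1.08 to 2.26, adjusted p = 0.729).

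Markers of the endothelial and stellate cells that make these signals were not called either. Of 12 liver endothelial markers 0 passed between 29 and 6 °C, with 12 of 12 fold changes positive and a median log2 fold change of 0.21 where the median of all tested genes was 0.00. Their sum lay between 676 and 864 CPM at 6 °C, 725 and 1083 CPM at 22 °C and 836 and 1090 CPM at 29 °C. Of 4 central vein endothelial markers (Kit, Thbd, Cdh13 and Selp) and 8 stellate cell markers 0 passed, with 4 of 4 and 7 of 8 positive and medians of 0.44 and 0.10. Selp followed the H2-Ea-ps split, at 9.02 to 16.4 CPM in libraries 1, 7, 8 and 9 and at 0.929 to 4.11 CPM elsewhere. None of these markers was at 0 in any library.

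**Figure D3:**
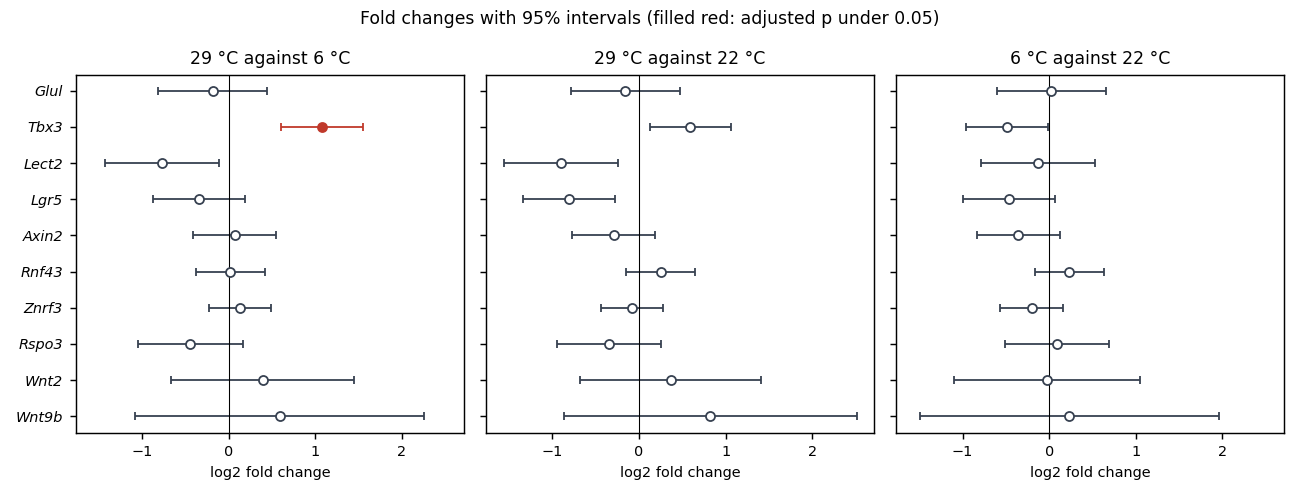
Log2 fold changes of the 10 genes in the 3 comparisons of housing temperatures, with 95% intervals from the fit across all genes. Tbx3 between 29 and 6 °C (1.08) is the 1 filled point; the intervals of Wnt2 and Wnt9b are the widest.

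By role, of the 3 hepatocyte targets Tbx3 rose between 6 and 29 °C, and Lect2 and Glul, at -0.78 and -0.19, did not pass. Of the 4 receptor and feedback genes 0 passed (median 0.04), and of the 3 secreted signals 0 passed (median 0.39). Over all 10 members the median log2 fold change was 0.04 between 29 and 6 °C, -0.12 between 29 and 22 °C and -0.08 between 6 and 22 °C, against 0.00, -0.00 and -0.02 over all tested genes. Called members numbered 1, 0 and 0, against 2.53%, 0% and 0.0333% of all genes (0.0133% lower in the last). These comparisons share their libraries and are not independent of each other.

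Across the 12 libraries the members did not move as one block. Among 45 pairs the highest Pearson correlations of log2 CPM were 0.66 for Lgr5 and Lect2, 0.66 for Rspo3 and Lect2, 0.65 for Lgr5 and Glul and 0.60 for Lgr5 and Axin2. Over the 8 libraries lacking H2-Ea-ps the same pairs stood at 0.79, 0.57, 0.71 and 0.76. The lowest were -0.52 for Wnt2 and Lect2 and -0.47 for Tbx3 and Lect2. The points of such a pair share library, depth and composition, so these values describe the 12 libraries and were not tested.

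The highest and lowest library of each group was also counted over the members. Every gene has such a library in each group, and the share over all tested genes was not computed. At 6 °C library 4 was the lowest of its group in 6 of the 10 members (Glul, Lgr5, Axin2, Rnf43, Tbx3 and Lect2) and library 3 the highest in 6. At 22 °C library 8 was the lowest in 8 members, and at 29 °C library 12 was the highest in 5. Library 11, which held the intestinal transcripts, was the lowest of its group in 4 members and the highest in 0, and the part of the intestinal and pancreatic transcripts in the values of libraries 3 and 11 was not tested.

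The genes whose pattern was most like a member's over the 12 libraries had Pearson correlations of log2 CPM between 0.81 and 0.95. They were C1s1 (0.92), Nxpe2 and Ncoa6 for Glul, Pdhb (0.92), Rabgef1 and Son for Tbx3, and Apon (0.95), Cwc27 and Cmah for Lect2. For Lgr5 they were Terf2 (0.92), Nup88 and E2f5, for Axin2 Pum3 (0.83), Chd6 and Nup88, and for Rnf43 Trim3 (0.93), Nuak2 and Zfp810. For Znrf3 they were Tmem56 (0.83), Dph5 and Renbp, and for Rspo3 Exoc3 (0.87), Hdhd2 and Mrps15. No member was among the 3 closest genes of another. Candidates came from the whole set of tested genes, so closer matches could displace members whether or not the members vary together. Wnt2 and Wnt9b were below the level set for this search.

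Other Wnt target and feedback genes were not called. Of 9 tested, 0 passed in any comparison, with a median log2 fold change of 0.11 between 29 and 6 °C. Ccnd1, which encodes cyclin D1, stood at 133 ± 8.48 and 134 ± 29.5 CPM at 6 and 29 °C. Cd44, an adhesion receptor, stood at 48.8 ± 15.9 and 87.4 ± 8.61 CPM with no overlap between groups (log2 fold change 0.85, adjusted p = 0.0587). Groups did not overlap in that direction for 6.51% of tested genes. The secreted Wnt inhibitors had 4 tested genes and 0 called, the remaining Wnt ligands and R-spondins 4 of 20 tested and 0 called, the secretion genes Wls and Porcn 0 called, and the 18 intracellular transducers 0 called in any comparison. Wnt5b and Wnt5a were the most abundant of those ligands, at 7.29 ± 1.77 and 4.19 ± 2.47 CPM at 6 °C and at 3.82 ± 0.923 and 3.85 ± 2.83 CPM at 29 °C. The 6 and 29 °C groups of Wnt5b did not overlap (log2 fold change -0.93, adjusted p = 0.103 by edgeR), as in 6.78% of tested genes in that direction. Ctnnb1, β-catenin itself, stood at 250 ± 17.8, 217 ± 23.6 and 250 ± 26.2 CPM at 6, 22 and 29 °C.

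Of the 12 tested Wnt receptors 2 fell from 6 to 29 °C, 0 rose and 10 did not pass. Among all tested genes 1.39% were called lower at 29 °C. Lgr4, the R-spondin receptor that hepatocytes carry alongside Lgr5, stood at 114, 86.2, 103 and 109 CPM in libraries 1 to 4, at 71.7, 63.3, 66.3 and 69.7 CPM in libraries 5 to 8, and at 40.8, 57.6, 65.0 and 60.1 CPM in libraries 9 to 12. The 6 °C libraries lay above all 8 others. Groups did not overlap in this direction for 6.78% of tested genes between 29 and 6 °C and for 3.53% between 6 and 22 °C. Its log2 fold change between 29 and 6 °C was -0.88 (SE 0.15, adjusted p = 0.0154), a call lost without library 4 (0.0516) or 10 (0.0577). Between 6 and 22 °C it was 0.61 and did not pass (adjusted p = 0.204). Fzd8, a Frizzled receptor, fell from 32.4 ± 3.53 to 15.1 ± 4.19 CPM (log2 fold change -1.10, adjusted p = 0.0352), a call lost without library 1, 2, 3, 4, 9, 10 or 11 (adjusted p of 0.0599 to 0.114) and without the 4 that held H2-Ea-ps (0.0520). The co-receptors Lrp5 and Lrp6 were the most abundant of the list and did not pass.

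Genes of the wider zonation programmes are set beside the members. Of 16 other pericentral hepatocyte genes 2 fell between 6 and 29 °C, 0 rose and 14 did not pass. Fold changes were negative for 15 of the 16, with a median of -0.69. Among all tested genes 1.39% were called lower, and 50.1% of fold changes were positive. Oat, ornithine aminotransferase, which shares the glutamine synthetase layer, fell from 712 ± 175 to 351 ± 132 CPM (log2 fold change -1.02, adjusted p = 0.0461), and its groups overlapped. Cyp2a5, a pericentral cytochrome P450 whose reads may be shared with Cyp2a4, fell from 237 ± 139 to 47.0 ± 19.9 CPM (-2.34, adjusted p = 0.0346). Each lost its call in several settings, Oat in 11 of 22 and Cyp2a5 in 9 of 22. Cyp2e1, the most abundant of the list, stood at 2973 ± 1153 and 2225 ± 396 CPM (adjusted p = 0.469), and Rgn, regucalcin, at 718 ± 124 and 480 ± 39.6 CPM (adjusted p = 0.0743).

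Genes of the opposite, periportal zone lay on the same side as the pericentral ones. Of 12 tested 0 passed, 11 fold changes between 29 and 6 °C were negative and the median was -0.87. Over all tested genes 50.1% of these fold changes were positive. Cps1, which starts the urea cycle, stood at 6739 ± 1435 and 4020 ± 1394 CPM, and Pck1, of gluconeogenesis, at 4291 ± 890 and 2709 ± 830 CPM, with adjusted p of 0.170 and 0.144. The medians of both zones and of the members (0.04) are given side by side, and the differences between the lists were not tested. Between 29 and 22 °C the pericentral median was -0.17 and the periportal median -0.23, and between 6 and 22 °C they were 0.42 and 0.65, with 0 genes of either list called.

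**Figure D4:**
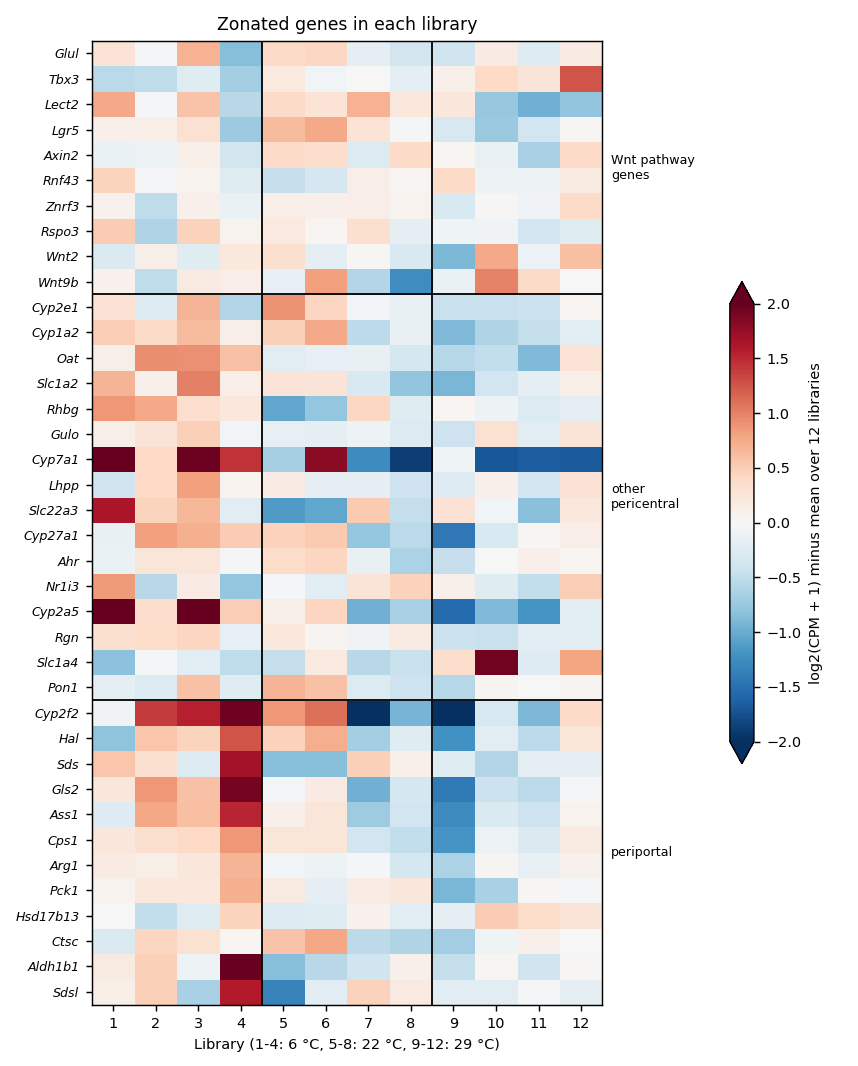
Log2(CPM + 1) of the 10 Wnt pathway genes, 16 other pericentral genes and 12 periportal genes in each library, minus the gene's mean over 12 libraries; colours saturate beyond 2 in either direction. Tbx3 and Lect2 run in opposite directions in libraries 10 to 12, and library 4 is low in Glul, Lgr5 and Lect2 and high in periportal genes.

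**Figure D5:**
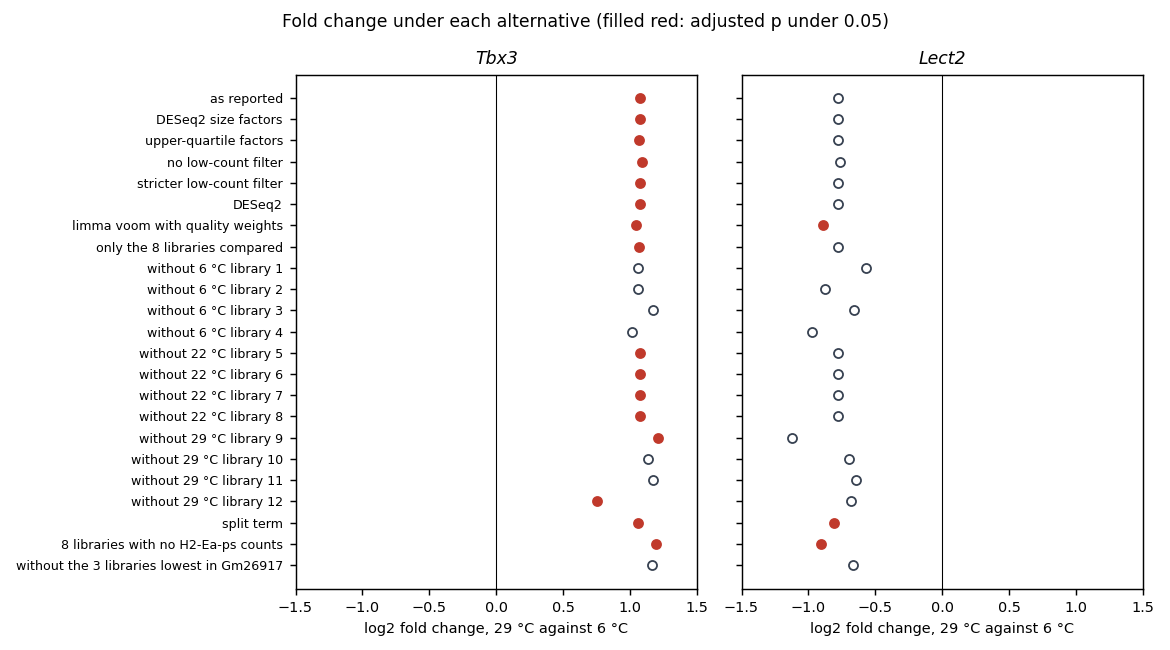
Log2 fold change of Tbx3 and Lect2 between 29 and 6 °C as reported and under 22 alternatives (the split term marks H2-Ea-ps libraries in the model), with filled red points for an adjusted p under 0.05. Tbx3 stays between 0.76 and 1.21 and Lect2 between -1.12 and -0.57.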

How the data were processed

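Total RNA of 12 liver samples was depleted of ribosomal RNA and sequenced (labels' protocols). The authors deposited raw counts per gene, not normalized, with symbols and Ensembl IDs in the file. STAR 2.6.1a, DESeq2 1.44.0, bcl2fastq and GRCm38 are named, without role or order, in the submitters' processing notes; the counting program is not given in the sources used here. Columns were mapped by library name. Counts were tested with edgeR 4.0.16 in R 4.3.3 (TMM, filterByExpr by group, robust quasi-likelihood fit of 3 group means, 9 residual degrees of freedom, no covariate), with an adjusted p under 0.05 as threshold and no minimum fold. 95% intervals are approximate, from the fold change, its SE and the moderated degrees of freedom. Exon length is the union of exons in GENCODE vM21 (GRCm38), matched by identifier; the version differed for Glul. Where a symbol had several copies the most abundant was used. The fit was also run on simulated data, and its recovery of known differences is not given here. No 2 replicates agreed within counting error (chi-square divided by its degrees of freedom was 13.8 to 151).

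Genes named are the 10 members, called genes of 23 fixed lists (at most 5 per list), the 2 most abundant genes of the lists described, and the 3 genes most correlated with a member at a mean log2 CPM of at least 1 (prior count 2). The members and lists were chosen with earlier results of these data known. Alternatives were another scaling (size factors of DESeq2 or the upper quartile), another filter (none, or at least 1 CPM in 4 libraries), another tool (DESeq2 1.42.0, limma 3.58.1 voom), a fit of the 8 libraries compared, and leaving out each library. A further 3 settings were added after seeing the data: a covariate marking the 4 libraries above 1 CPM of H2-Ea-ps, those 4 left out, and the 3 lowest in Gm26917 left out.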

Additional observations from a re-analysis of the deposited data

Results flagged for a closer look

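In 3 of 30 groups of 4 libraries a single library stood apart from the rest by Dixon's criterion, which chance alone meets in about 1 in 20 groups. Wnt9b was low in library 2 at 6 °C, at 0.664 CPM where the next value was 1.51 CPM. Axin2 was low in library 7 at 22 °C, at 17.3 CPM against 27.5 CPM or more in the others. Lect2 was high in library 9 at 29 °C, at 74.2 CPM where the next value was 37.4 CPM. Libraries 7 and 9 hold H2-Ea-ps and library 2 does not.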

How the results depend on the processing

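Tbx3 between 29 and 6 °C kept its direction in all 22 alternatives. Members called there numbered 2 under limma voom, with a split term (a covariate for the H2-Ea-ps libraries) and without those libraries (Tbx3 and Lect2), 0 without the 3 libraries lowest in Gm26917, and 0 to 1 when each library was left out. All genes called, 379 as reported, were 1205 by DESeq2, 1110 by voom, 1884 with the split term, 1504 without the H2-Ea-ps libraries, 134 without the Gm26917-low libraries and 41 (without library 10) to 439 with 1 library left out. Between 29 and 22 °C (0 genes as reported) the counts were 15 with no filter, 329 by DESeq2, 43 by voom, 516 with the split term, 2594 without the H2-Ea-ps libraries (2 members, Lect2 and Lgr5) and 0 to 78 with 1 library left out. Between 6 and 22 °C (5 genes) they were 178 by DESeq2, 3 in the 8 libraries compared, 55 with the split term, 1015 without the H2-Ea-ps libraries, 0 without the Gm26917-low libraries and 3 to 7 with 1 left out, with 0 members throughout. For any temperature (100 genes, 0 members) they were 225 with no filter (1 member), 1185 by DESeq2 (1), 862 by voom (2), 1681 with the split term (2), 3278 without the H2-Ea-ps libraries (2), 13 without the Gm26917-low libraries, and 8 to 196 with 1 left out (0 to 1 members). The cause of these differences was not tested. Without the H2-Ea-ps libraries the 22 °C group is Gm26917-low throughout and the 29 °C group holds no such library. Temperature and the Gm26917 difference cannot be told apart in that comparison.

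Log2 fold changes near 0 changed sign in some settings, none of them called. Under voom Axin2 between 29 and 6 °C was -0.061, and between 6 and 22 °C Rspo3 was -0.00086 and Glul -0.053. With the split term Glul between 6 and 22 °C was -0.011. Without the H2-Ea-ps libraries Znrf3 between 29 and 22 °C was 0.012, and between 6 and 22 °C Wnt9b was -0.66, Rspo3 -0.082 and Glul -0.34. Without the Gm26917-low libraries Glul was 0.061 between 29 and 6 °C and 0.21 between 29 and 22 °C, and between 6 and 22 °C Wnt2 was 0.25 and Rspo3 -0.0026. With 1 library left out, the 29 against 6 °C ranges were -0.12 to 0.23 for Axin2, -0.087 to 0.16 for Rnf43, -0.014 to 0.22 for Znrf3 and -0.40 to 0.064 for Glul. Znrf3 ranged from -0.22 to 0.020 between 29 and 22 °C. Between 6 and 22 °C the ranges were -0.23 to 0.24 for Glul, -0.18 to 0.17 for Wnt2, -0.20 to 1.32 for Wnt9b, -0.058 to 0.30 for Rspo3 and -0.34 to 0.069 for Lect2. DESeq2 gave no adjusted p for Wnt9b between 29 and 22 °C. Depth limits Wnt2 and Wnt9b most. No paired analysis was possible because the libraries are numbered 1 to 12 without shared numbers between temperatures.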

Other observations

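Within the 6 °C group, library 4 was the highest in 11 of 12 periportal genes and the highest in 0 of 16 other pericentral genes, being the lowest in 7 of them. Within the 29 °C group, library 9 was the lowest in 10 of 12 periportal genes and in 7 of 16 other pericentral genes. Library 3 was the highest of the 6 °C libraries in 9 of the 16 other pericentral genes, and library 12 the highest of the 29 °C libraries in 10. The shares of such genes over all tested genes were not computed.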
